A study of Mus musculus with 4 samples.

Results

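The cells described here are macrophages of the steatohepatitic mouse liver that carried transcripts of both Ccr2, the chemokine receptor of blood monocytes, and the C1q genes of tissue macrophages. They were chosen in the 2 NASH libraries from raw UMI counts (molecules counted once by their molecular identifier). Kept cells are those with 200 or more genes detected and no more than 10% of UMIs from mitochondrial genes. A kept cell was a member if the UMIs of C1qa, C1qb and C1qc together made up at least 5 per 1000 of its UMIs and Ccr2 had at least 1 UMI. Cells with a UMI of Clec4f or Timd4 (Kupffer cells), Siglech (plasmacytoid dendritic cells), Cd3d, Cd3e or Cd3g (T cells) or Cd79a (B cells) were left out. Cells with UMIs of both Mki67 and Top2a (dividing cells) were left out too. The gate took 232 cells, 109 of 1592 kept cells in NASH library 1 and 123 of 1887 in NASH library 2, out of 6237 kept cells in the series.

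The series holds 4 droplet (10x Genomics) libraries of CD45+ CD146- cells, that is leukocytes depleted of sinusoidal endothelium, sorted from livers of C57BL/6J mice. Control libraries 1 and 2 came from mice fed a control diet. NASH libraries 1 and 2 came from mice fed the diet of the Amylin liver NASH model, which induces non-alcoholic steatohepatitis. Flavopiridol, a transcription inhibitor, was present while the livers were digested with Liberase. The labels give no age, sex or time on diet and do not say that each library is a separate mouse, so a p-value here measures no more than how far these samples spread, and that spread may be technical. Cells of 1 library share their source and were never used as replicates.

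Kupffer cells are the resident macrophages of the liver sinusoids and in the healthy adult liver renew themselves with little input from blood. When they are lost, Ly6C-high monocytes that entered through CCR2 can fill the niche: they lose monocyte transcripts, gain complement C1q, MHC class II and lysosomal transcripts, and later acquire Kupffer genes such as Clec4f, while Timd4 appears late. CX3CR1, the fractalkine receptor, is carried by patrolling monocytes and by many monocyte-derived macrophages. Trem2, Gpnmb, Spp1 and Cd9 mark the lipid- and scar-associated macrophages of fatty and fibrotic liver.

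Depth separated the diets. Control libraries 1 and 2 held 5513953 and 5684819 UMIs, and NASH libraries 1 and 2 held 13749657 and 15619962. In the same order, the median kept cell had 3395, 3053, 7633 and 7469 UMIs. Any pair of libraries shared 2 to 8 cell barcodes, and no barcode was a member in both NASH libraries. The members had a median of 8770 and 8288 UMIs in NASH libraries 1 and 2 and a median mitochondrial share of 2.95% and 2.87%. Their median doublet score was 0.0489 and 0.0433, against 0.0457 and 0.0433 over all kept cells, and 0 and 2 members were among the cells with the top doublet scores. Ptprc, the gene of the sorted antigen CD45, had a UMI in 94 of 109 and 115 of 123 members. Mcam, the gene of CD146, had a UMI in 1 member of each library.

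Members were set beside 3 classes of the same NASH libraries. Monocytes (72 and 49 cells) had C1q under 5 per 1000 UMIs, at least 1 UMI of both Ccr2 and Ly6c2, the members' other exclusions, and no UMI of Flt3, Xcr1 or Nkg7. Ccr2-zero macrophages (101 and 132 cells) met the members' rule with 0 UMIs of Ccr2, and Clec4f-positive macrophages (434 and 596 cells) met it with at least 1 UMI of Clec4f and any Ccr2. Median UMIs per cell were 6836 and 5659 in monocytes, 6120 and 6517 in Ccr2-zero macrophages, and 8252 and 7850 in Clec4f-positive macrophages. A Ccr2 count of 0 does not show that a cell lacks the transcript, and Ccr2-zero macrophages were shallower than members in both libraries. The classes were drawn from UMIs of the same cells, so genes that travel with a gate gene differ through the gate itself; the gate genes are given as descriptions and were left out of the tests.

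C1q fell into a low and a high range among Ccr2-positive cells that passed the members' other exclusions. In NASH library 1, 123 of 256 such cells had under 1 C1q UMI per 1000, 24 had 1 to 5, 19 had 5 to 10, 80 had 10 to 20 and 10 had 20 or more. In NASH library 2 the numbers were 98 of 243, then 22, 22, 76 and 25. The members' median was 15.3 and 15.6 per 1000, close to the 16.9 and 17.6 of Ccr2-zero macrophages and far from the 0.468 and 0.350 of monocytes. B cells, defined by at least 2 UMIs of Cd79a and C1q under 5 per 1000, had a median of 0.455 and 0.420, which gives the level of C1q from free RNA in the droplets. Few cells lay at the threshold: 7 and 4 had C1q of 3 to 5 per 1000 and 8 and 9 had 5 to 7. Plac8, a monocyte transcript, stood at 1826 and 2596 CPM, its UMIs scaled to a total of 1e+06 per class and library, in the cells just outside the threshold and at 1756 and 2156 in the cells just inside. Trem2 stood at 448 and 194 CPM just outside and 861 and 515 just inside.

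**Figure D1:**
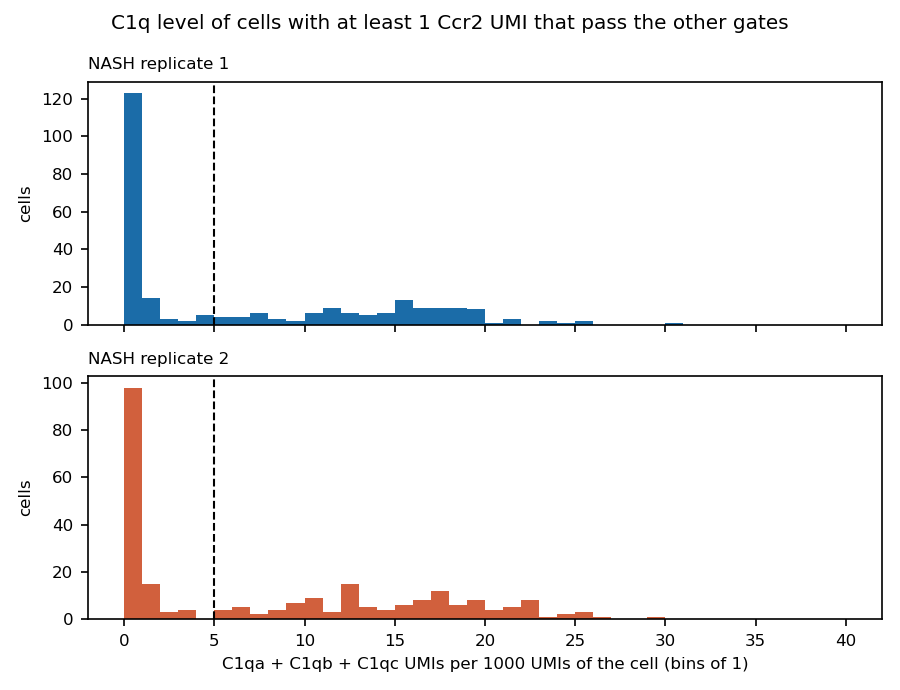
Histogram of C1q UMIs (C1qa, C1qb and C1qc) per 1000 UMIs in Ccr2-positive cells that pass the other exclusions, one panel per NASH library, with the number of cells on the vertical axis and the gate of 5 per 1000 as a dashed line. Most cells lie below 1 or above 10, with 24 and 22 cells between 1 and 5 in NASH libraries 1 and 2.

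The gate held few cells in control livers, as did the gates of the nearest classes. Members were 6.85% of kept cells in NASH library 1 (exact 95% Clopper-Pearson interval 5.66 to 8.20) and 6.52% in NASH library 2 (5.45 to 7.73). In control libraries 1 and 2, 1 of 1321 cells (0.0757%, 0.00192 to 0.421) and 4 of 1437 cells (0.278%, 0.0759 to 0.711) passed the same gate. Both NASH shares lay above both control shares. With 2 libraries per diet the smallest p of an exact permutation test is 0.333, so none was run. After thinning every cell to 3000 UMIs, the shares were 6.73% and 7.31% in NASH and 0.128% and 0.680% in control. The gate was applied anew to the thinned UMIs, so the cells that passed were partly others. In NASH libraries 1 and 2, 97 and 128 cells passed, whereas 67 and 76 of the members drawn at full depth kept a Ccr2 UMI. The intervals cover counting error only. The 5 control cells held 0 UMIs of Ly6c2, Plac8, Gpnmb, Spp1, Cd9 and Mmp12, and 10 and 7 UMIs of Trem2 (1487 and 314 CPM), with a Trem2 UMI in 1 of 1 and 3 of 4 cells. They were too few for a test of expression between diets. Monocytes were 0 and 5 control cells, against 4.52% and 2.60% of kept cells in NASH, and Ccr2-zero macrophages were 4 and 15 control cells (0.303% and 1.04%), against 6.34% and 7.00% in NASH.

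Ccr2, on chromosome 9 (mm10 chr9:124101950-124113557, plus strand), stood at 356 and 432 CPM in the summed members, against 948 and 923 in monocytes and 86.4 and 83.3 in Clec4f-positive macrophages. Of the members, 35 and 33 carried exactly 1 Ccr2 UMI and 74 and 90 carried 2 or more. Before the Ccr2 gate, 109 of 210 (51.9%) and 123 of 255 (48.2%) of the C1q-high cells without Clec4f and Timd4 had a Ccr2 UMI. The share was 25.6% and 24.0% in Clec4f-positive macrophages and 19.1% and 16.3% in B cells, whose median depth was 5045 and 5373 UMIs. At 3000 UMIs per cell the shares were 35.8% and 31.9%, 12.9% and 14.0%, and 11.9% and 13.2% in the same order. At this depth the share in Clec4f-positive macrophages was thus near that in B cells, whereas the share in the C1q-high cells was above both in both libraries. With cells still thinned, 2 or more Ccr2 UMIs were found in 6.19% and 6.02% of Clec4f-positive macrophages and 7.14% and 1.32% of B cells. Single Clec4f-positive macrophages held up to 15 and 23 Ccr2 UMIs at full depth. Whether Ccr2 in Clec4f-positive macrophages is background was not tested. C1qa, on chromosome 4 (chr4:136895917-136898803, minus strand), stood at 4680 and 4323 CPM in members, 199 and 135 in monocytes and 5534 and 5554 in Ccr2-zero macrophages. The gate fixes the order against monocytes. It does not fix that against Ccr2-zero macrophages, which pass the same C1q limit, and C1qa was not tested.

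Cx3cr1 (chr9:119901616-120069879, minus strand) was not used by the gate, and among the classes compared its level was highest in the members. The monocyte class required UMIs of both Ccr2 and Ly6c2. Monocytes without a Ly6c2 UMI, and any patrolling monocytes among them, were thus not compared. Summed members held 499.5 CPM in NASH library 1 and 591 in library 2. Ccr2-zero macrophages held 456 and 462, monocytes 207 and 242, and Clec4f-positive macrophages 181 and 217. The members' 2 values lay above all 6 others, and the values of monocytes and Clec4f-positive macrophages overlapped. By the quasi-likelihood F test of edgeR, with p adjusted by Benjamini-Hochberg over all genes tested, Cx3cr1 was higher in members than in monocytes by 1.36 on the log2 scale (SE 0.125, adjusted p = 7.29e-13) and than in Clec4f-positive macrophages by 1.49 (SE 0.0971, adjusted p = 1.54e-17). The difference from Ccr2-zero macrophages, 0.23 (SE 0.102), did not pass (edgeR, adjusted p = 0.294). A Cx3cr1 UMI was found in 88 of 109 (80.7%) and 108 of 123 (87.8%) members. At 3000 UMIs per cell the share was 62.4% and 70.6% in members, 55.8% and 63.0% in Ccr2-zero macrophages, 44.3% and 52.2% in monocytes, 27.2% and 29.7% in Clec4f-positive macrophages, and 9.52% and 9.21% in B cells. All these classes exceeded the B cells. Over the 8 class sums the genes whose log2 CPM was most like Cx3cr1 included Cd93 (r = 0.896), Hspa5 (0.893), Clec4a2 (0.868) and Ehd4 (0.860), a description over sums that share their libraries.

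Members carried far less of the monocyte transcripts than monocytes did, and more of those of macrophages. Of 7172 genes tested, 1444 (20.1%) passed an adjusted p of 0.05, 695 (9.69%) of them higher and 749 (10.4%) lower in members. DESeq2 called 384 and 473, and edgeR without the monocyte sum of library 1 called 439 and 408. Of the 19 listed monocyte markers 17 could be tested, and all 17 were lower, with a median log2 difference of -3.48 against 0.01 over all genes. Of 20 listed core macrophage genes 17 could be tested, and all 17 were higher, with a median of 1.46. The 3 comparisons with other classes share the members' sums.

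Among monocyte genes, Chil3, a secreted chitinase-like protein of Ly6C-high monocytes, stood at 19.6 and 51.3 CPM in members against 932 and 1728 in monocytes. It was lower by edgeR's quasi-likelihood test (log2 difference -5.16, SE 0.293, Benjamini-Hochberg adjusted p = 1.11e-05). Plac8 stood at 446 and 573 CPM against 5557 and 6362, and Ly6c2, a gate gene of the monocytes, at 74.5 and 96.1 against 1722 and 1555. The groups did not overlap in any of these genes. Plac8 passed the test (log2 difference -3.48, edgeR adjusted p = 0.00752) but did not when any 1 sum of members or monocytes was left out. F13a1, the coagulation factor XIII A chain, Fn1, the gene of fibronectin, and the calcium-binding S100a4 and S100a6 were lower by 3.88, 3.14, 3.71 and 3.14 on the log2 scale. S100a6, for example, stood at 3094 and 2889 CPM in monocytes and 301 and 339.6 in members. Cd177, a surface glycoprotein, had 1.03 and 1.87 CPM in members (3 UMIs in all) against 59.2 and 72.6, a ratio of 0.0230 with a 95% counting interval of 0.00458 to 0.0710. The interferon-induced Ifitm6 was lower by 4.99, and the transcription factors Klf4 and Cebpb, which act in monocyte development, were lower by 3.35 and 1.51. Tgfbi, a secreted matrix protein, stood at 472 and 468 CPM against 863 and 860.5, a smaller difference of -0.80 (SE 0.100).

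Scavenging and complement-associated macrophage genes showed the opposite order. Cd81, a tetraspanin, stood at 569 and 603 CPM in members and 55.3 and 34.6 in monocytes, a log2 difference of 3.67 (SE 0.162, edgeR adjusted p = 2.49e-23). Ms4a7, a membrane protein of macrophages, was at 431 and 471 CPM against 45.4 and 51.8 (3.30), and Apoe, the lipid-carrying apolipoprotein E, at 55965 and 55306 against 6933 and 10367. The Apoe difference of 2.78 passed (edgeR adjusted p = 0.00701), though not without the members' sum of library 1. Pf4, a platelet-type chemokine also made by macrophages, Ptgs1, the gene of cyclooxygenase-1, and Cadm1, an adhesion molecule, were higher by 5.24, 5.12 and 5.01. H2-M2, a non-classical MHC class I gene in a family of similar sequences, had 371 UMIs in the members and 0 in the monocytes, at least 48.3-fold higher when 3 counts are allowed over the monocytes. It stood at 185 and 179 CPM in members, 232 and 258 in Ccr2-zero macrophages and 87.0 and 50.1 in Clec4f-positive macrophages. Mertk, a receptor for apoptotic cells, stood at 53.8 and 83.0 CPM against 0 and 10.4, a ratio of 18.3 (95% counting interval 6.15 to 90.02).

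**Figure D2:**
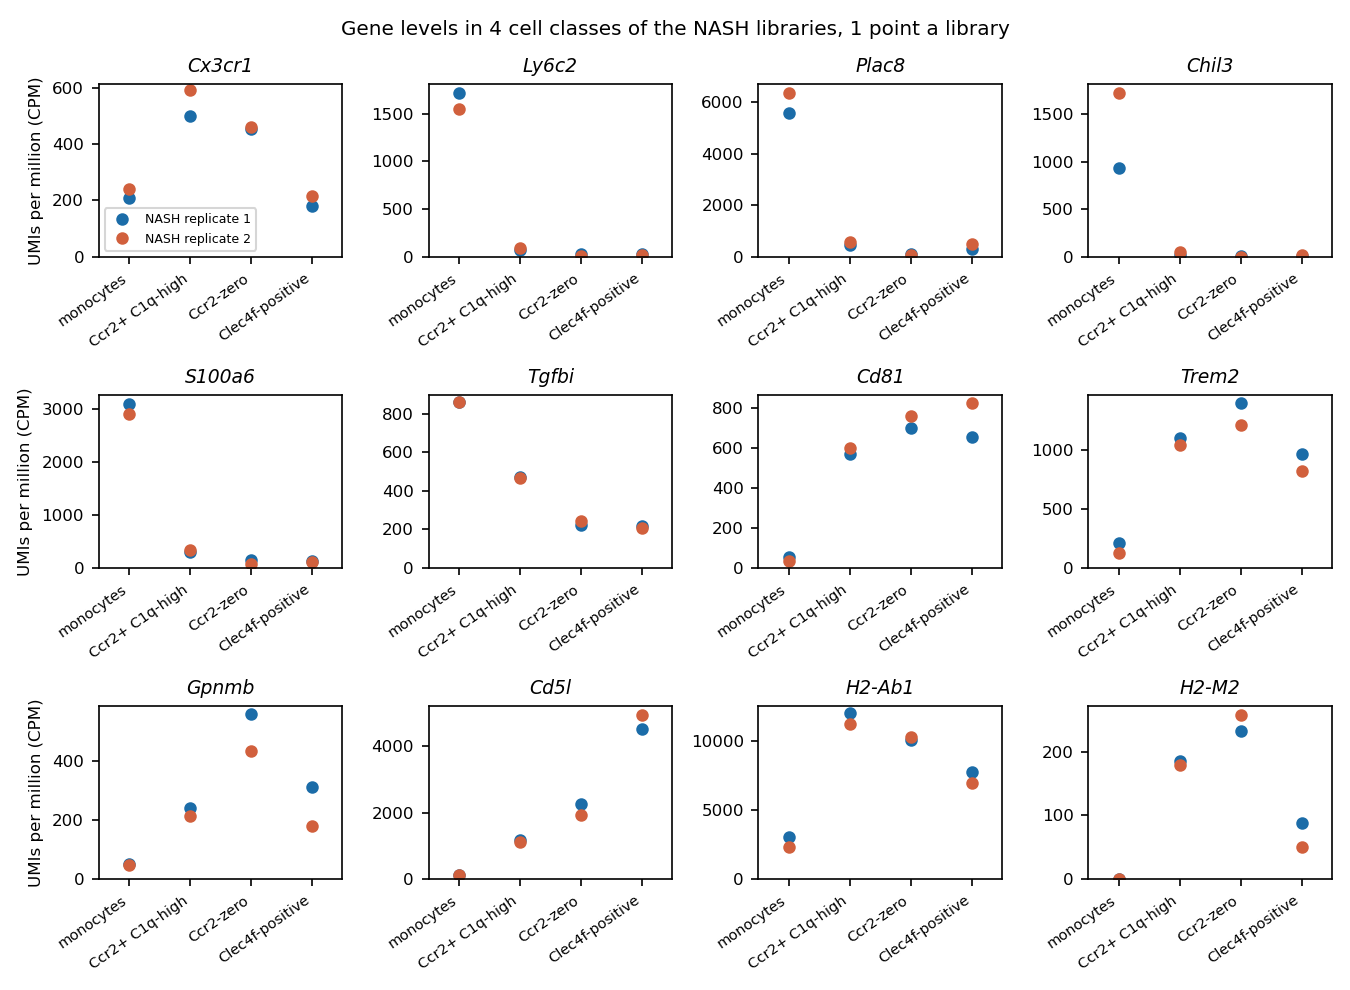
Level of 12 genes in CPM (linear axis) in monocytes, members, Ccr2-zero macrophages and Clec4f-positive macrophages. Each point is a NASH library, from UMIs summed over the cells of each class. Ly6c2, Plac8, Chil3 and S100a6 were highest in monocytes, Cx3cr1 was highest in members, and Cd5l was lower in members (1166 and 1118) than in Clec4f-positive macrophages (4521 and 4962).

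Most genes of the MHC class II list were higher in members than in monocytes and in Clec4f-positive macrophages. H2-Ab1, the beta chain of MHC class II I-A, stood at 12044 and 11247 CPM in members, 3039 and 2305 in monocytes, 10083 and 10281 in Ccr2-zero macrophages and 7799 and 6944 in Clec4f-positive macrophages. The members' values were the highest of the 4 classes in both libraries. The difference from monocytes was 2.20 (SE 0.0686, edgeR adjusted p = 3.05e-18), that from Clec4f-positive macrophages 0.70 (SE 0.0631, adjusted p = 1.3e-08), and that from Ccr2-zero macrophages 0.17, which did not pass (adjusted p = 0.189). H2-Eb1 was higher than in monocytes by 2.45, and Cd74, the invariant chain, by 1.94. Of 14 tested genes of the class II list, 9 were higher and 1 lower than in monocytes (median 1.04), 9 were higher and 2 lower than in Clec4f-positive macrophages (median 0.57, all genes 0.01), the lower ones being the costimulator Cd86 and the thiol reductase Ifi30, and 1, the class II transactivator Ciita, was higher than in Ccr2-zero macrophages. The gate does not remove conventional dendritic cells, and 3 of 9 tested cDC2 markers (Cd209a, Clec4b1 and Ciita) were higher and none lower than in Clec4f-positive macrophages, with a summed level of 807 and 807 CPM in members and 685 and 724 there; their part in the class II differences was not tested. Ciita stood at 34.1 and 33.6 CPM in members and 11.5 and 10.2 in Ccr2-zero macrophages, and its call did not hold after thinning, without the library block or without either Ccr2-zero sum.

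Lipid-handling and lysosomal genes were also raised over monocytes. Trem2, the lipid-sensing receptor, stood at 1100.4 and 1036 CPM in members and 211 and 121 in monocytes, a difference of 2.71 (SE 0.111, edgeR adjusted p = 2.62e-24). Gpnmb, a lysosomal glycoprotein, was at 241 and 214 CPM against 49.4 and 48.4 (2.36), the tetraspanin Cd9 at 676 and 365 against 107 and 51.8 (2.72), and the protease Ctsd at 1970.1 and 1716 against 456 and 435 (2.13). All 4 genes were separated between the classes in both libraries. Spp1, the gene of osteopontin, was at 706 and 234 CPM against 45.4 and 363, and the elastase Mmp12 at 551 and 279 against 265 and 3.46. In Spp1 the classes overlapped, and neither gene passed (edgeR adjusted p = 0.574 and 0.41). Of 26 tested genes of the lipid- and scar-associated list, 15 were higher and 3 lower (median 1.39). Of 26 lysosomal genes, 15 were higher and none lower (median 0.63), and of 19 genes of the LXR and lipid transport list, 11 were higher and none lower (median 1.38). Of the transcription factors, Nr1h3, the lipid-sensing LXR alpha, stood at 163 and 172 CPM against 45.4 and 51.8 (1.88), and Maf at 209 and 234 against 53.3 and 65.7 (1.98). Over the 30 tested transcription factors 11 were higher and 7 lower.

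Some genes of the Kupffer list were higher in members than in monocytes, although no member carried a Clec4f or Timd4 UMI. Of 25 listed Kupffer genes 20 were tested, and 11 were higher than in monocytes and none lower, with a median of 2.38, or 2.24 with genes at 0 UMIs in monocytes set to their bound. Cd5l, a secreted scavenger-receptor protein of Kupffer cells, stood at 1166 and 1118 CPM against 126 and 128 (3.25, SE 0.107, edgeR adjusted p = 7.93e-28). At 3000 UMIs per cell, a Cd5l UMI was found in 46.5% and 64.7% of members, 30.0% and 19.6% of monocytes and 40.5% and 34.2% of B cells, so that in library 1 the members' share was near that of B cells. Cd207, the lectin langerin, stood at 250.3 and 289 against 9.87 and 10.4, Clec1b, a C-type lectin, at 302 and 404 against 19.7 and 17.3, and Il18bp, the interleukin-18 binding protein, at 327 and 362 against 7.90 and 34.6. These were raised by 4.80, 4.26 and 4.34. Igf1, a growth factor, was at 251 and 236 CPM against 53.3 and 10.4 (2.80). Vsig4, a complement receptor, stood at 269.9 and 156 CPM, with 31.6 and 44.9 in monocytes. Vsig4 was not among the genes of any list that passed as higher than in monocytes. The chemokines Ccl5 and Cxcl14 were raised over monocytes by 4.21 and 3.88, Ccl5 from 13.8 and 13.8 CPM to 194 and 309.7.

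Fewer genes separated the members from Ccr2-zero macrophages. Of 7174 genes tested, 228 (3.18%) passed, 114 (1.59%) of them higher and 114 (1.59%) lower in members, and 929 genes had an unadjusted p under 0.05. These counts depend on the model: 10 and 8 genes passed without the library as a block, 48 and 32 in DESeq2, and 25 and 46 when every cell was thinned to 3000 UMIs. Thinning also drew the classes anew, and Ccr2-zero macrophages grew from 101 and 132 to 201 and 253 cells. Members and Ccr2-zero macrophages drawn at full depth had 187 and 238 cells deep enough to thin, of which 67 and 76 kept a Ccr2 UMI. Cells from outside both classes thus entered besides members that lost their Ccr2 UMIs, so that depth and class make-up changed together. Genes lower in members also numbered 64 without the Ccr2-zero sum of library 1, and leaving out any other sum of these 2 classes gave 51 to 66 higher and 45 to 60 lower.

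Monocyte transcripts were among the genes higher in the members. Ly6c2 stood at 74.5 and 96.1 CPM in members and 24.4 and 6.79 in Ccr2-zero macrophages, a difference of 2.53 (SE 0.296, edgeR adjusted p = 6.04e-06); reads of its near-identical neighbour Ly6c1 could be assigned to either gene. Tgfbi was at 472 and 468 CPM against 222 and 244 (0.99, SE 0.107, adjusted p = 3.62e-09, edgeR). Alox5ap, the activator of leukotriene synthesis, was at 275 and 315 against 133 and 180.0 (0.90), and Plbd1, a phospholipase-like protein of granules, at 88.9 and 102 against 32.9 and 37.3 (1.42). In these 4 genes the classes did not overlap, and each call held under every alternative. S100a10 and Lsp1, a leukocyte actin-binding protein, were higher by 1.97 and 1.30, the first not after thinning and the second not without the block. S100a11 was higher by 0.97, also not without the block. Plac8, at 446 and 573 against 103 and 61.1, and S100a6, at 301 and 339.6 against 152 and 79.2, differed by 2.65 and 1.50 without overlap but did not pass (edgeR adjusted p = 0.125 and 0.0585). Of 18 tested monocyte markers, 6 were higher and none lower (median 1.07, against -0.01 over all genes).

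Some cell cycle genes were also higher in the members, although cells with UMIs of both Mki67 and Top2a had been left out of both classes. Of 10 tested, 5 were higher and none lower (median 0.82). Birc5, an inhibitor of apoptosis of dividing cells, stood at 38.3 and 32.7 CPM in members and 8.59 and 1.13 in Ccr2-zero macrophages (edgeR adjusted p = 2.74e-05). Its call held under the 18 of 19 alternatives that gave a value. Ccnb2, a mitotic cyclin, stood at 42.4 and 23.3 against 7.16 and 1.13, Stmn1, a microtubule regulator, at 102 and 62.5 against 40.1 and 11.3, and Ube2c, a mitotic ubiquitin enzyme, at 16.5 and 18.7 against 4.30 and 1.13. Hmgb2, a chromatin protein of dividing cells, was at 205 and 167 against 98.8 and 65.6. Ccnb2, Stmn1 and Ube2c did not pass after thinning, none of these 4 passed without the block, and Ube2c also failed without the library 2 sum of either class. The summed level of the whole list was 791 and 641 CPM in members, 863 and 532 in monocytes and 491 and 387 in Ccr2-zero macrophages. The part of the members' greater depth in these differences cannot be told apart from the change of classes in the thinned cells.

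Kupffer and lysosomal genes were among those lower in the members than in Ccr2-zero macrophages. Cd5l stood at 1166 and 1118 CPM against 2245 and 1939, a difference of -0.89 (SE 0.0703, edgeR adjusted p = 1.17e-12). Ctsd stood at 1970.1 and 1716 against 3174 and 3045 (-0.78, SE 0.0626, edgeR adjusted p = 4.44e-13), and Cd207 at 250.3 and 289 against 461 and 551 (-0.93). Serpinb6a, a protease inhibitor in a family of close copies, stood at 102 and 124 against 242 and 197 (-0.96), the DNA methyltransferase Dnmt3a at 51.7 and 70.9 against 112 and 135 (-1.02), and Ctla2b, a cathepsin inhibitor-like gene with the close copy Ctla2a, at 34.1 and 40.1 against 75.9 and 82.6 (-1.11). The classes were apart in both libraries for all 6. The 6 calls held under every alternative that gave a value, 18 for Dnmt3a and Ctla2b and 19 for the others.

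Lipid-associated genes were in the same direction. Gpnmb stood at 241 and 214 CPM in members and 560.1 and 436 in Ccr2-zero macrophages (-1.14, SE 0.122, edgeR adjusted p = 7.2e-09), Igf1 at 251 and 236 against 520.0 and 454 (-1.01), the fatty acid carrier Cd36 at 254 and 168 against 423 and 358 (-0.92), and Fabp5, a fatty acid-binding protein, at 299 and 244 against 511 and 575 (-1.04). None of these 4 passed without the block, and Fabp5 also failed without the monocyte sum of library 2. Trem2, at 1100.4 and 1036 against 1395 and 1208, differed by -0.30 and passed narrowly (edgeR adjusted p = 0.0218), but not under 8 alternatives, which included leaving out either Ccr2-zero sum, either Clec4f-positive sum or the members' sum of library 1. Cd9 (-0.38) and Apoe (-0.38) did not pass (edgeR adjusted p = 0.0626 and 0.636). Of 26 tested lipid- and scar-associated genes 8 were lower and none higher (median -0.41), of 20 Kupffer genes 6 were lower and none higher (median -0.72), and of 26 lysosomal genes 7 were lower and none higher (median -0.21). None of the 30 transcription factors passed in either direction (edgeR), and their median was -0.00.

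**Figure D3:**
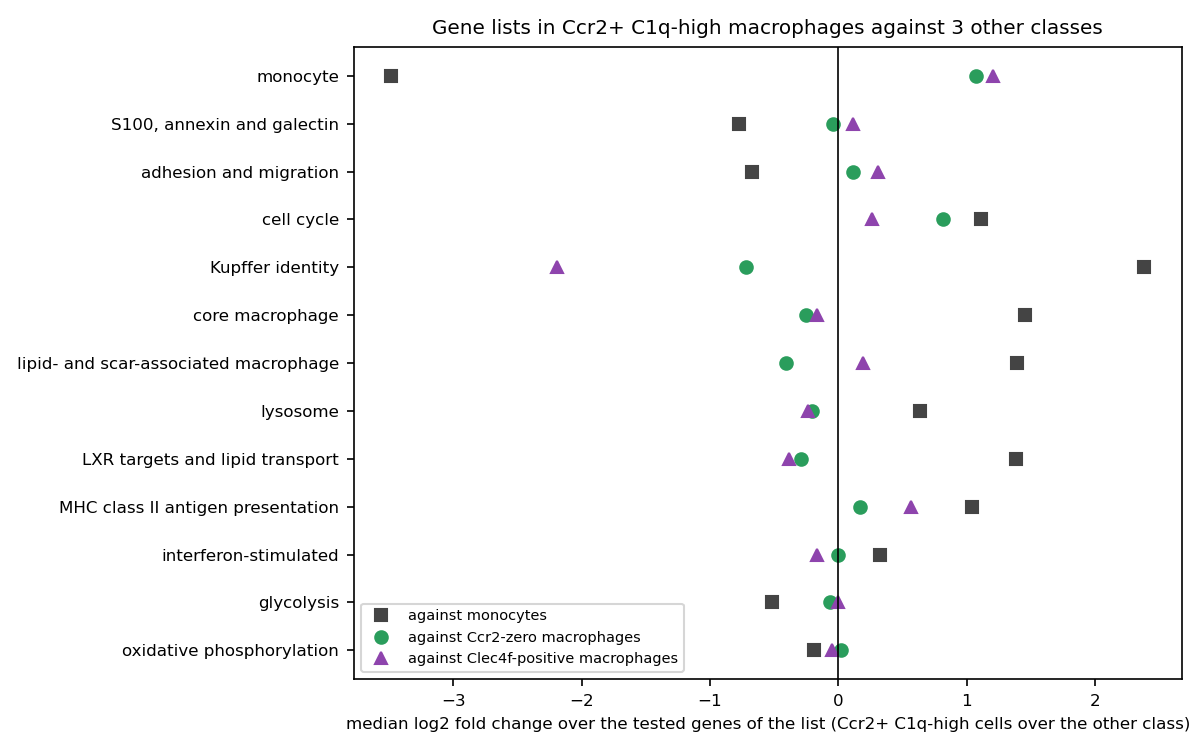
Median log2 difference of the tested genes of 13 lists, members minus each of the 3 other classes, one marker per comparison, with 0 as a line. The monocyte list lies at -3.48 against monocytes and at 1.07 against Ccr2-zero macrophages, and the Kupffer list at 2.38, -0.72 and -2.19 against monocytes, Ccr2-zero and Clec4f-positive macrophages.

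Against the Clec4f-positive macrophages, 693 of 7174 genes (9.66%) passed, 330 (4.6%) of them higher and 363 (5.06%) lower in members. Without the library block the counts were 124 and 192, and DESeq2 called 113 and 128. Leaving out 1 sum of either class gave 143 to 171 higher and 183 to 235 lower.

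Kupffer genes were lower in the members as a group, 16 of 20 tested and none higher, with a median of -2.19. Fcna, a ficolin of innate defence, stood at 26.9 and 38.3 CPM in members against 251 and 302 (-3.05), and Cdh5, the gene of VE-cadherin, at 27.9 and 19.6 against 128 and 121 (-2.36). Cd5l stood at 1166 and 1118 against 4521 and 4962 (-2.02, SE 0.0697, edgeR adjusted p = 2.74e-26). C6, a terminal complement component, was nearly absent from members at 4.14 and 1.87 CPM against 76.4 and 121 (-5.01, SE 0.318, edgeR adjusted p = 7.79e-18). The potassium channel gene Kcna2 stood at 11.4 and 7.46 against 65.3 and 70.1, and the chemokine Ccl24 at 63.1 and 22.4 against 249.8 and 234. Fabp7, a fatty acid-binding protein, stood at 226 and 211 against 918 and 1062, the desaturase Scd1 at 19.6 and 22.4 against 146 and 109, and Nr1h3 at 163 and 172 against 310.4 and 305. The differences for these 5 were -2.82, -2.51, -2.14, -2.54 and -0.84. Ctla2b was lower by 2.23 on the log2 scale. Vsig4, at 269.9 and 156 against 1760.4 and 1656, differed by -3.05 without passing (edgeR adjusted p = 0.0702). None of the groups named here overlapped, which the choice of genes favours.

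Higher in the members were receptors, the transcription factor Mef2c and several monocyte markers. Fcgr2b, the inhibitory IgG receptor, stood at 159 and 134 CPM against 40.2 and 38.7 (1.92, SE 0.142, edgeR adjusted p = 1.76e-15), and Ramp1, a co-receptor for the neuropeptide CGRP, at 52.7 and 64.4 against 19.9 and 13.4 (1.88). Cd93, a receptor of immature myeloid and endothelial cells, stood at 91.0 and 82.1 against 31.7 and 26.04 (1.62), the transcription factor Mef2c at 122 and 88.6 against 45.4 and 33.3 (1.46), and Susd3 at 54.8 and 53.2 against 18.8 and 16.8 (1.63). Ly6c2 was higher by 1.87, H2-M2 by 1.48, Napsa, an aspartic protease of monocytes, by 1.28, Tgfbi by 1.18 and Cd74 by 0.82. Napsa stood at 604 and 511 CPM in monocytes and 82.7 and 90.5 in members. Of 18 tested monocyte markers, 10 were higher and 2 lower (median 1.21). Plac8 did not pass (446 and 573 against 303 and 499, overlapping, edgeR adjusted p = 0.607), nor did Gpnmb (241 and 214 against 312 and 179.7, adjusted p = 0.927). Trem2 was higher by 0.30 (edgeR adjusted p = 0.00489), a call lost under 5 alternatives, which included leaving out either Clec4f-positive sum or the members' sum of library 2.

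Taking all genes that separated the 2 ends, the members stood nearer the macrophages than the monocytes. Position was computed per library for 1133 genes, with monocytes at 0 and macrophages at 1 on log2 CPM. These genes passed edgeR between monocytes and Ccr2-zero macrophages, differed by at least 1 on the log2 scale and kept their direction in both libraries. The C1q gate, which members share with Ccr2-zero macrophages, partly fixes this place. Choosing genes whose ends lie apart in the same sums also favours places between the ends. The median was 0.808 in both libraries. Of the genes, 710 (62.7%) lay between the ends in both libraries, 78 lay past the macrophages in both and 3 past the monocytes in both, and 342 differed between libraries. On the macrophage side of the midpoint in both libraries were 869 genes, and on the monocyte side 52. The 472 genes higher in monocytes had a median of 0.749 and 0.748, and the 661 higher in macrophages 0.842 and 0.848.

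The lists are given by their medians, with no test between them, since their genes overlapped widely, from 0.267 to 1.21 for class II and from 0.394 to 1.44 for the monocyte markers. The 7 class II genes lay at a median of 1.12 and 1.06, past the macrophages, with H2-Ab1 at 1.15 and 1.06 and Cx3cr1 at 1.12 and 1.38. The 13 transcription factors lay at 0.923 and 0.933, the 15 lipid- and scar-associated genes at 0.914 and 0.829, and the 11 LXR and lipid transport genes at 0.863 and 0.876. The 11 Kupffer genes lay at 0.803 and 0.873, with Cd5l at 0.772 and 0.797, and the 11 lysosomal genes at 0.822 and 0.729. The 17 monocyte markers lay at 0.774 and 0.622, Plac8 at 0.634 and 0.520, Plbd1 at 0.598 and 0.566, Gpnmb at 0.651 and 0.674 and Tgfbi at 0.445 and 0.484. Tgfbi was thus the gene of these nearest to the monocyte level.

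**Figure D4:**
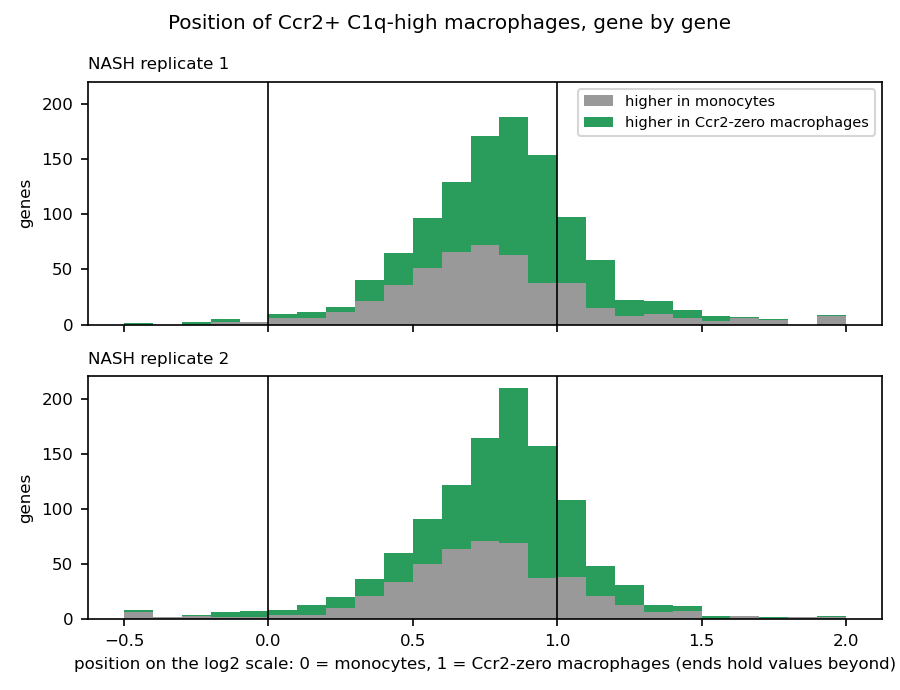
Position of the members between monocytes (0) and Ccr2-zero macrophages (1) on log2 CPM for the 1133 genes that differ between those classes, one panel per NASH library, with the number of genes on the vertical axis; values beyond the ends of the axis are placed in the end bins. The median is 0.808 in both libraries, and most genes lie between 0 and 1.

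Few genes set the members apart from both sides. Between the 2 classes lay 73 genes (1.02%) that were lower than in monocytes and higher than in Ccr2-zero macrophages, and 66 (0.92%) with the reverse order, each past both tests. Higher than in both monocytes and Ccr2-zero macrophages were 8 genes (0.112%), and lower than in both were 11 (0.153%). Of these, 4 higher and 5 lower had at least 50 CPM in the higher classes and 1 direction in both libraries. The higher ones were Stmn1, Ccl5, Tmem176b, a membrane protein of antigen-presenting cells, and the chromatin-associated Ptma. Stmn1 stood at 49.4 and 6.91 CPM in monocytes, 102 and 62.5 in members and 40.1 and 11.3 in Ccr2-zero macrophages. Ccl5 stood at 194 and 309.7 in members and 159 and 178 in Ccr2-zero macrophages, a difference of 0.56 that turned to -0.41 after thinning and did not pass without either Ccr2-zero sum or the members' sum of library 2. The lower ones were Mgst1, a microsomal glutathione transferase, Rasgrp2, a Rap activator, Ninj1, a membrane-rupture protein, the inhibitory receptor Lilrb4a, which has close copies, and Actb. Mgst1 stood at 71.4 and 84.9 in members, 381 and 467 in monocytes and 145 and 99.6 in Ccr2-zero macrophages. Its call held under every alternative against monocytes but not under 6 alternatives against Ccr2-zero macrophages, among them leaving out the library 1 sum of either class. Each of these 9 genes lost at least 1 of its 2 calls in DESeq2, without the block or after thinning, where Ninj1 turned to 0.19 against monocytes.

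The members were not uniform. Along C1q among Ccr2-positive cells, Plac8 stood at 1756 and 2156 CPM at 5 to 7 C1q UMIs per 1000, 1067 and 435 at 7 to 10, 450 and 795 at 10 to 15, 195 and 319 at 15 to 20, and 35.9 and 16.4 at 20 and over. Ly6c2 stood at 189 and 383 at 5 to 7 and at 0 and 5.48 at 20 and over. Apoe stood at 20108 and 20794 at 5 to 7 and at 85191 and 71836 at 20 and over, and Cx3cr1 at 224 and 347 and at 622 and 712. Trem2 stood at 861 and 515 at 5 to 7, 1296 and 1040 at 10 to 15, and 1233 and 893 at 20 and over, H2-Ab1 at 6817 and 9355 at 5 to 7 and 14994 and 16055 at 20 and over. The lowest bin thus held the highest Plac8 and Ly6c2 of the members in both libraries, and the highest bin the highest Apoe, H2-Ab1 and Cx3cr1. The bins at 5 to 7 hold 8 and 9 cells, those at 20 and over 10 and 25. These are shares of the same UMIs, so a transcript that takes more of a cell leaves less for the others.

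**Figure D5:**
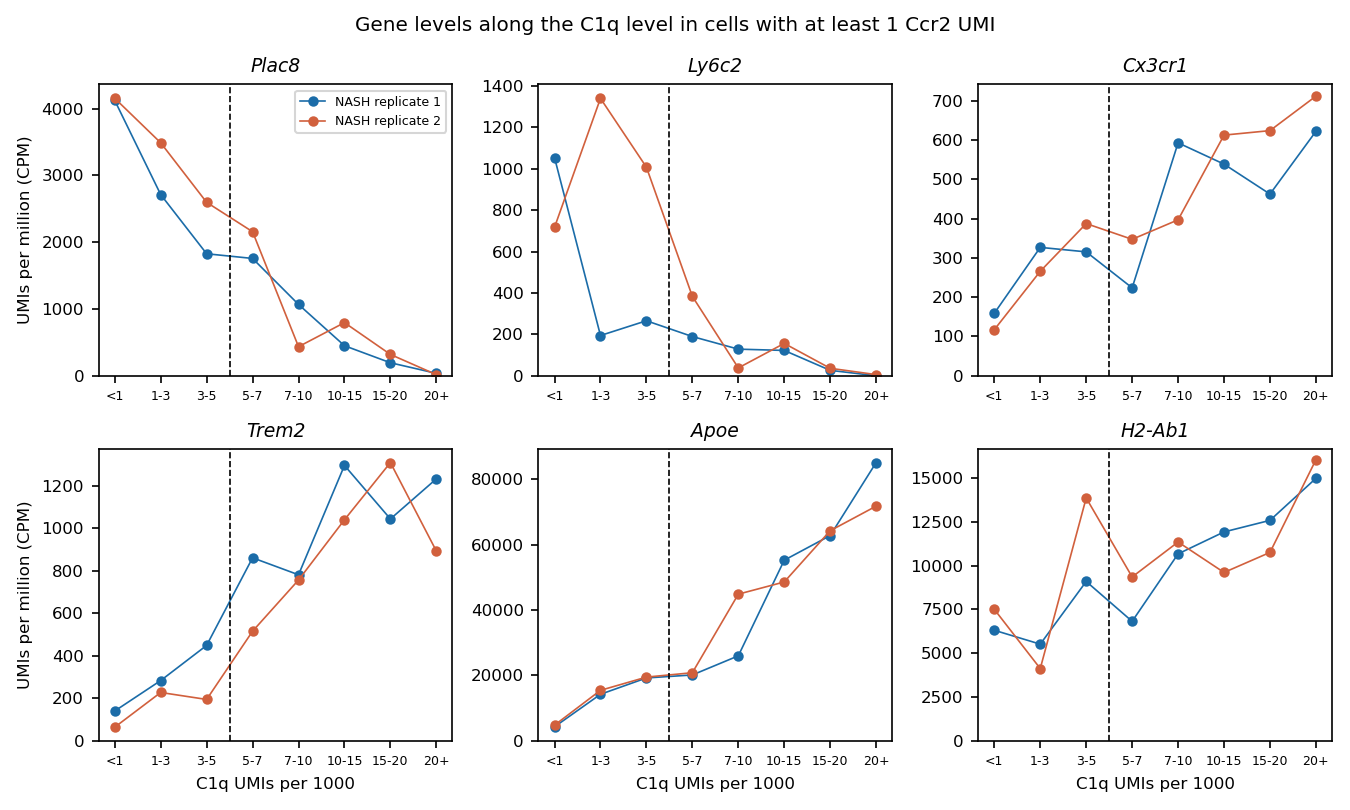
Level in CPM (linear axis) of Plac8, Ly6c2, Cx3cr1, Trem2, Apoe and H2-Ab1 in Ccr2-positive cells binned by C1q UMIs per 1000 UMIs. Each line is a NASH library. In NASH library 1, Plac8 goes from 1756 in the first bin of the gate to 35.9 in the last, and Apoe from 20108 to 85191.

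Members with a Ly6c2 UMI were also compared with those without, as a description. Ly6c2 UMIs were found in 21 of 109 and 24 of 123 members. Those cells held 1109 and 1259 CPM of Plac8, against 278 and 366 in the other members, 195 and 217 against 20.7 and 20.6 of Fn1, and 71.9 and 185 against 6.48 and 10.9 of Chil3. They held less Trem2, 786 and 893 against 1180 and 1080, and less Cd9, 385 and 262 against 750 and 396. Their median depth was 9297 and 9822.5 UMIs against 8764 and 7846. At 3000 UMIs per cell, a Ly6c2 UMI was found in 8.91% and 15.1% of members, 5.81% and 2.52% of Ccr2-zero macrophages, 4.21% and 4.25% of Clec4f-positive macrophages, 85.7% and 87.0% of monocytes and 21.4% and 19.7% of B cells. The members' share lay above both other macrophage classes and below the B cells, so Ly6c2 expression in single members is not read from it. A Plac8 UMI was found in 34.7% and 27.7% of members, 27.5% and 30.8% of Clec4f-positive macrophages and 83.3% and 82.9% of B cells, and the shares of the first 2 classes overlapped. Members with Gpnmb UMIs, 56 and 51 cells, held 1359 and 1255 CPM of Trem2 against 765 and 844 in those without.

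Plac8 and Trem2 UMIs met in 48 of 109 (44.0%) and 39 of 123 (31.7%) members, and Cx3cr1 and Trem2 UMIs in 86 (78.9%) and 102 (82.9%). At 3000 UMIs per cell, Plac8 and Trem2 met in 26.7% and 21.8% of members, 34.3% and 23.9% of monocytes, 14.0% and 10.9% of Ccr2-zero macrophages and 9.52% and 10.5% of B cells, so that the monocytes' share was the higher in both libraries. Cx3cr1 and Trem2 met in 53.5% and 63.9% of members, 48.8% and 60.5% of Ccr2-zero macrophages, 14.3% and 15.2% of monocytes and 4.76% and 5.26% of B cells. A Trem2 UMI was found in 85.1% and 88.2% of members and 11.9% and 15.8% of B cells, and Gpnmb in 33.7% and 20.2% against 9.52% and 5.26%. The Trem2 and Gpnmb shares exceeded those of B cells in both libraries. H2-M2 was found in 16.8% and 16.8% of members, 32.6% and 37.0% of Ccr2-zero macrophages and 0% and 0% of monocytes. The thinned values rest on 101 and 119 members, with 8 and 4 shallower members left out.

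Markers of other cell types were summed in the same way. T cell markers summed to 25.9 and 20.5 CPM in members, with Cd3d, Cd3e and Cd3g at 0 by the gate and Cd8a at 0 as well. B cell markers summed to 68.3 and 82.1 CPM, with Cd79a, Pax5 and Blk at 0. Neutrophil markers summed to 135 and 73.7 CPM in members and 1013 and 96.8 in monocytes. NK cell markers summed to 333 and 366 CPM in members, 15.8 and 20.7 in monocytes and 218 and 307 in Ccr2-zero macrophages, and Ccl5 is one of them. Dendritic cell (cDC2) markers summed to 807 and 807 CPM in members, 415 and 446 in monocytes and 699 and 850.0 in Ccr2-zero macrophages. Of 9 tested, 3 (Cd209a, Klrd1 and Ciita) were higher than in Ccr2-zero macrophages, where 1.59% of all genes were. cDC1 markers summed to 638 and 811 CPM in members, 478 and 477 in monocytes and 627 and 731 in Ccr2-zero macrophages, and pDC markers to 634 and 704, 302 and 415, and 710 and 917. Cholangiocyte markers, a list that holds Spp1, summed to 713 and 238, 47.4 and 369.8, and 1070.0 and 690.4. Hepatocyte markers summed to 562 and 515 CPM, against 257 and 190.1 in monocytes and 788 and 515 in Ccr2-zero macrophages, and 3 of 6 tested were higher in members than in monocytes. Erythroid genes, whose hemoglobin copies share sequence, summed to 3.10 and 1.87 CPM in members and 112 and 126 in Clec4f-positive macrophages, and 4 of 4 tested were lower in members. The part of such RNA in the differences was not tested.

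The promoters of Ly6c2 and Cd5l, a gene on each side of the members, are shown with the letters of motifs of PU.1, the myeloid master factor, and of MAF factors in capitals. They run from 250 bases before to 50 after the start, 5′ to 3′ on the gene's strand (RefSeq, GRCm38.p6). Ly6c2 lies on the minus strand at chr15:75111922-75112221 and Cd5l on the plus strand at chr3:87357631-87357930; the table holds no C1qa entry.
Ly6c2: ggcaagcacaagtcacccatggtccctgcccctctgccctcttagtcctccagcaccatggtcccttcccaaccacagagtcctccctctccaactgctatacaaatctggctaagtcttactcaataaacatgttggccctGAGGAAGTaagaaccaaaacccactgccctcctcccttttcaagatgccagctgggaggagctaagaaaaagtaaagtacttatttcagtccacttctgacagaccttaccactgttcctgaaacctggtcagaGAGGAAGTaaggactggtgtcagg
Cd5l: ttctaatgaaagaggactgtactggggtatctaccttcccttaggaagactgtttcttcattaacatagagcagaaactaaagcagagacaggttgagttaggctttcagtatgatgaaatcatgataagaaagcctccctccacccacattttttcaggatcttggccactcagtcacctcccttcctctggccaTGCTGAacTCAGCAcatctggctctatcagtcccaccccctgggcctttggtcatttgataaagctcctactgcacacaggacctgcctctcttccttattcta
The Ly6c2 window holds the PU.1 letters GAGGAAGT from bases 143 and 277, counted from the first base shown. The Cd5l window holds the MAF letters TGCTGA from base 197 and their reverse complement from base 205. Both strands were searched, and a match of letters is not a binding site. The PU.1 letters were found in 3.93% of the 5571 tested genes with a promoter in the table, in 7.05% of 525 genes higher and 5.61% of 570 genes lower in members than in monocytes. The MAF letters were found in 14.1%, 16.6% and 17.0% of the same sets. Of 76 genes higher and 89 lower than in Ccr2-zero macrophages, 3.95% and 4.49% held the PU.1 letters and 11.8% and 13.5% the MAF letters. The IRF letters, GAAA and a further GAAA after 2 free bases, were found in 3.63% of all tested genes and in 3.81% and 6.14% of those higher and lower than in monocytes, and the CEBP letters TTGCNNAA in 8.76%, 9.52% and 9.30%. These are descriptions without a test.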

How the data were processed

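The files hold counts as deposited, that is unnormalized UMIs of 27998 genes per barcode in 4 libraries; per the submitters' processing notes, Cell Ranger, Seurat and the mm10 build were used, without versions or roles. How barcodes were called as cells, and whether reads were counted by strand, is not given in the sources used here. Models of genes came from GENCODE vM21, in which 98.7% of identifiers were found.

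The members and gene lists were chosen with earlier results of these data known, so no list is independent evidence. UMIs were summed per class and NASH library (8 sums), which gave a single fit in edgeR 4.0.16 (limma 3.58.1, R 4.3.3) with TMM factors, filterByExpr, the robust quasi-likelihood F test and Benjamini-Hochberg adjustment at 0.05. The library was a block, since the sums of 1 library come from the same sort and sequencing sample, and 3 residual degrees of freedom were left. The SE given with edgeR results is the size of the log2 difference divided by the square root of the F statistic. It was not estimated separately. After filtering, 7179 genes remained, of which 7172 or 7174 were tested once gate genes were set aside. On simulated counts for members against monocytes, Ccr2-zero and Clec4f-positive macrophages the fit recovered 92%, 99% and 99% of 2-fold changes among 6734, 6736 and 6736 genes. All classes were simulated from the Ccr2-zero profile with a common spread and no library effect, and only genes with enough counts were changed. The recovered shares thus do not measure how often changes in low or more variable genes are found.

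The genes named are the 12 largest changes each way per comparison, past the threshold, moving 1 way in both libraries and reaching 50 CPM in the higher class, the 10 each way that passed against both neighbours, the 4 of smallest p per list, and the 5 most like Cx3cr1. Among these the text gives those whose role is known. Such a choice favours genes whose classes do not overlap, and the share of these over all genes was not counted. A few genes that the rule names are not reported here. Outside that rule, and chosen after their values were seen, are Apoe, Gpnmb, Mmp12, F13a1, S100a4, Plac8 and S100a6 against monocytes, Plac8, H2-Ab1, Apoe, Cd9, Trem2 and Ube2c against Ccr2-zero macrophages, and Plac8, Gpnmb and Trem2 against Clec4f-positive macrophages. Position used log2 CPM with a pseudocount of 1. Doublet scores came from Scrublet in scanpy 1.11.5 and no cell was removed for them, except as an alternative at 0.8% per 1000 cells or 3 times that, chosen for the shares after seeing the data. Thinning drew 3000 UMIs per cell; for shares of members and for tests the gates were then applied anew, while shares of cells with a UMI kept the classes drawn at full depth. Folds against 0 UMIs use a floor of 3 counts over the class, and intervals cover counting error at 95%. The other alternatives were DESeq2 1.42.0, upper-quartile factors, no filter, stricter gates and cell filters, no block, and each sum left out. Python 3.11.15, numpy 2.4.6, scipy 1.17.1, pandas 2.3.3 and matplotlib 3.10.9 were used.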

Additional observations from a re-analysis of the deposited data

How the results depend on the processing

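With 2 libraries and 49 to 132 cells per class outside the Clec4f-positive cells, low genes rest on few UMIs, and a share near that of B cells cannot show expression. Against monocytes the higher and lower counts were 384 and 473 in DESeq2, 452 lower after thinning, and 439 to 685 and 408 to 675 when 1 sum was left out. Against Ccr2-zero macrophages they were 62 and 55 with C1q of at least 10 per 1000, 48 and 32 in DESeq2, 25 and 46 after thinning, and 51 to 134 and 45 to 118 when 1 sum was left out. Against Clec4f-positive macrophages they were 113 and 128 in DESeq2, and 143 to 355 and 183 to 404 when 1 sum was left out. Without the library block the counts were 513 and 561, 10 and 8, and 124 and 192 for the 3 comparisons. Thinning also drew the classes anew (201 and 253 Ccr2-zero macrophages), so that depth and class changed together; the cause of these moves was not tested.

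The median position (0.808) was 0.809 and 0.814 without doublet scores of the wider and narrower set, 0.835 with C1q of at least 10, 0.783 with at least 2 Ccr2 UMIs, 0.811 in DESeq2, 0.801 with at least 500 genes and at most 5% mitochondrial UMIs, and 0.841 after thinning. It was 0.812 with monocytes under 2 per 1000, 0.806 without a filter, 0.805 without the block, 0.810 with upper-quartile factors, and 0.808 when a library was left out. The members' share was 5.65% and 5.35% with C1q of at least 10 and 4.65% and 4.77% with at least 2 Ccr2 UMIs. Of 2120 values over 112 named genes and comparisons, 1955 kept direction and side of the threshold, 123 lost and 33 gained the call, and 9 changed sign.

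The changes of sign were Spp1 against monocytes (-0.34 to 3.93 when 1 sum was left out, the lowest without the monocyte sum of library 1), Ninj1 against monocytes (0.19 after thinning), Ccl5 against Ccr2-zero macrophages (-0.41 after thinning) and Plac8 against Clec4f-positive macrophages (-0.0290 with C1q of at least 10). Gpnmb against Clec4f-positive macrophages was 0.24 with C1q of at least 10, 0.072 with stricter cell filters, 0.0072 after thinning, and -0.27 to 0.24 when 1 sum was left out, above 0 without the Clec4f-positive or the members' sum of library 1; the cause was not tested. The test between diets and its alternatives were not run, since 1 and 4 control cells passed the gate against a minimum of 10.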
